A study of Homo sapiens with 12 samples.

Results

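Transcript levels of 10 genes were followed in IMR32 cells depleted of the transcription factors MYCN and HAND2: the neuropeptide precursors GAL, VIP, ADCYAP1 and NPY, the secretory granule proteins CHGA, CHGB, SCG2, SCG3 and VGF, and the kappa opioid receptor gene OPRK1. They are 10 of the 27514 genes listed in the deposited table and were found there by symbol. The first 9 were taken as neuropeptides and granule proteins of sympathetic cells. OPRK1 was selected on its measured CPM, for its large fall in the siHAND2 samples here, so its values are given as a description with no test. IMR32 is an established human neuroblastoma line with extra copies of MYCN, and all samples come from this 1 line. Cells were electroporated with small interfering RNA (siRNA) and harvested after 72 h, in 4 groups of 3 samples each. The control group, siCtrl, received a control siRNA. The siMYCN group received 1 directed at MYCN, the siHAND2 group 1 directed at HAND2, and the combined knockdown received both of these. The labels name 1 siRNA per target, and every group, siCtrl included, was electroporated. They do not say whether the replicates were separate cultures, so the p-values measure the spread between these samples, which may be technical.

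Neuropeptides are made as longer precursors that pass through the secretory pathway and are packed into dense-core vesicles, where prohormone convertases and a carboxypeptidase cut and trim them. Granins (chromogranins CHGA and CHGB, secretogranins SCG2 and SCG3, and VGF) are acidic proteins of the same vesicles, which help to form the condensed core and are themselves cut into peptides. Sympathetic neurons and the chromaffin cells of the adrenal medulla release both kinds of product together with catecholamines, and chromogranin A in blood is used as a tumour marker. NPY accompanies noradrenaline in sympathetic nerves, VIP and galanin (GAL) mark subsets of sympathetic cells and injured neurons, and ADCYAP1 encodes PACAP, a close relative of VIP that acts through the receptor ADCYAP1R1. OPRK1 is a Gi-coupled receptor whose peptide ligands, the dynorphins, are made from the precursor PDYN.

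Promoter sequences were taken from the RefSeq table of GRCh38.p14, in which 6 of the 10 genes were matched (NPY, VIP, ADCYAP1, CHGA, SCG3 and VGF). The 250 bases before the annotated start are printed for 3 genes that moved differently when MYCN was reduced: VIP, which was higher in every siMYCN sample, CHGA, which rose, and VGF, which fell. Capitals mark each match, on either strand, of CANNTG (the E-box, the kind of site that MYC family proteins and HAND proteins with their partners bind) and of TGACG (the core of the cAMP response element). The windows lie at chr6:152750547-152750796 on the plus strand for VIP, chr14:92922900-92923149 on the plus strand for CHGA and chr7:101165570-101165819 on the minus strand for VGF.
VIP: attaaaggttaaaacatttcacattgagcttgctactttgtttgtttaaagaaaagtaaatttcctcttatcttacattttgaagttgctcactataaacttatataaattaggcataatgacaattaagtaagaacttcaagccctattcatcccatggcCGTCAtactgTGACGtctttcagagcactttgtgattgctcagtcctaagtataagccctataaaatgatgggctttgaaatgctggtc
CHGA: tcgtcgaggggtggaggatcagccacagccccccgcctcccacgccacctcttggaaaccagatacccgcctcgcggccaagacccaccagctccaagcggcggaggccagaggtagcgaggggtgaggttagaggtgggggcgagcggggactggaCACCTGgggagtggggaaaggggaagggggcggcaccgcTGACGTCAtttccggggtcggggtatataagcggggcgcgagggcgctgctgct
VGF: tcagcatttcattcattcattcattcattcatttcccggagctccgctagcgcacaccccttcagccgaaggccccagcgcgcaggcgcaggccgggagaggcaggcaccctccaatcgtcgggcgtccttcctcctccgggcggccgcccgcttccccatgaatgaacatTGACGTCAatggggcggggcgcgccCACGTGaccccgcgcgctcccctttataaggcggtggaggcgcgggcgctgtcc
Positions are given as the number of bases between the end of a match and the annotated start. The VGF window holds the E-box CACGTG at 48 bases, and the full palindrome TGACGTCA, which contains TGACG on both strands, at 71 bases. The CHGA window holds TGACGTCA at 46 bases and a single other E-box at 87 bases. In the VIP window TGACG is present on both strands, at 84 and 74 bases, and CANNTG is not. Among 35116 promoter windows of the same length in the table, 61.8% held CANNTG, of which CACGTG is 1 form, 6.34% held CACGTG, 21.2% held TGACG and 1.65% held TGACGTCA. The SCG3 window held 2 matches of CANNTG, and 1 of the 2 ADCYAP1 windows held 2 of CANNTG and 1 of TGACG. The NPY window held neither motif. These matches describe the sequence and say nothing about binding.

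Values are CPM, taken here as read counts relative to all reads of a library, since the denominator is not stated. Depth estimated from the smallest CPM step was 31.6 to 64.2 M reads. The share of reads in the listed genes was 64.3 to 65.8% in siCtrl, 61.3 to 63.3% after siMYCN, 56.8 to 61.4% after siHAND2 and 44.3 to 58.4% after both. Within the combined knockdown that share was 58.4, 51.4 and 44.3% in replicates 1, 2 and 3, and the CPM of GAL, CHGA, CHGB, SCG2 and VGF stood in the same order. The median log2 change of all tested genes against siCtrl was 0.006 after siMYCN, −0.14 after siHAND2 and −0.28 after both, and results are also given after rescaling each sample by its median ratio to the other samples. MYCN was 67.5% of its siCtrl mean in siMYCN and 47.7% in the combined knockdown. HAND2 was 26.0% of siCtrl in siHAND2, 30.7% in the combined knockdown and 136% in siMYCN. Among sympathetic neuroblast markers, PHOX2A, TH, DBH, GATA3 and ISL1 summed to 121 to 129 CPM in siCtrl, 193 to 213 after siMYCN, 88.9 to 101 after siHAND2 and 107 to 142 after both. Within this list DBH, the last enzyme of noradrenaline synthesis, moved as GAL did in the single knockdowns (1.29 and −0.92, limma adjusted p 2.57e-07 and 1.70e-05) and stood at −0.92 after both (5.40e-06), while ISL1 rose in all 3 (0.52, 1.11 and 1.54), and TH averaged only 0.782 CPM. Summed over 5 Schwann cell precursor markers the level was 1.45 to 1.62 CPM in siCtrl, 2.61 to 3.24 after siMYCN, 1.90 to 2.21 after siHAND2 and 2.34 to 3.04 after both. The sum of 3 endothelial markers was 0.551 to 0.776 CPM in siCtrl, 2.05 to 2.82 after siMYCN, 0.886 to 1.45 after siHAND2 and 1.19 to 1.92 after both. That of 3 immune markers was 0.441 to 0.767, 0.645 to 0.844, 0.443 to 0.714 and 0.828 to 0.959 CPM in the same order, and CD3E was listed at 0. The sum of 6 mesenchymal markers was 89.1 to 93.6 CPM in siCtrl, 94.5 to 102 after siMYCN, 47.8 to 51.4 after siHAND2 and 40.6 to 54.0 after both, mostly from TWIST1, and PRRX1 was listed at 0. The part of these cell markers in the results below was not tested.

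Levels of different genes were compared per kilobase of the canonical transcript. In siCtrl, GAL was highest at 78.6 CPM per kilobase, followed by CHGA at 50.1, SCG3 at 31.4, SCG2 at 17.6 and CHGB at 15.6. VGF at 4.40, OPRK1 at 3.32 and ADCYAP1 at 1.66 CPM per kilobase stood lower, and VIP at 0.359 and NPY at 0.323 were lowest. No neighbours in this order had overlapping siCtrl samples except VIP (0.279 to 0.408) and NPY (0.198 to 0.565). In the combined knockdown SCG2 had the highest mean of the 10 genes, at 90.8 ± 26.0 CPM per kilobase (SD, n = 3), against 69.9 ± 20.8 for GAL and 65.2 ± 16.0 for CHGA. The ranges of SCG2 (64.6 to 117) and GAL (49.6 to 91.2) overlapped across those samples, although within each sample SCG2 exceeded GAL per kilobase.

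**Figure D1:**
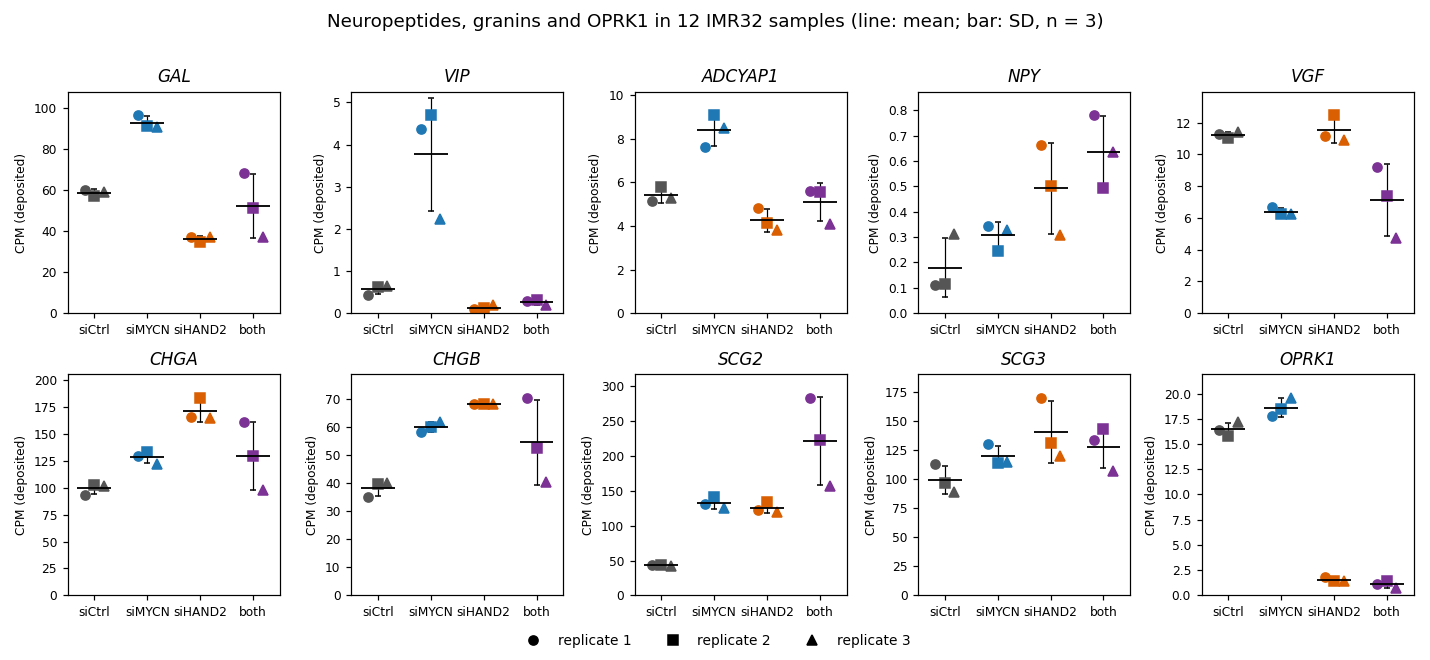
CPM as deposited (y axis, starting at 0) of the 10 genes in 12 IMR32 samples, by siRNA group (x axis). Each symbol is 1 sample, shaped by replicate number, the line is the group mean and the bar is the SD (n = 3). GAL, VIP and ADCYAP1 were highest in siMYCN, SCG2 was highest in the combined knockdown, and OPRK1 stood at 1.80 CPM or less in all 6 samples that received siHAND2.

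A limma model of log2(CPM + 1) was fitted to the 12680 genes whose mean reached 1 CPM, and called below means a p under 0.05 after Benjamini-Hochberg adjustment over all of them. Fold changes on that scale understate the change of genes with low values. Of the 9 genes tested, 8 passed that filter. NPY did not pass, and VIP passed only through its level in siMYCN, so VIP had to differ between groups. Its differences that involve siMYCN are therefore given with no test, and counts of called genes are over the 7 others. Fewer cells that express a gene and less RNA per cell cannot be told apart in bulk RNA.

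The peptide precursors GAL and ADCYAP1 rose in siMYCN, where VIP was also highest, and in siHAND2 GAL fell while VIP and ADCYAP1 stood below siCtrl. GAL (chr11:68451943-68458644, hg19, plus strand), the precursor of the inhibitory peptide galanin, had 60.1, 57.2 and 59.4 CPM in siCtrl, 96.5, 91.4 and 91.1 after siMYCN and 37.1, 35.0 and 37 after siHAND2. These 3 groups did not overlap and each was tight. GAL thus rose 1.58-fold in siMYCN (log2 0.65, SE 0.14, limma adjusted p 9.03e-04) and fell to 0.618 of siCtrl in siHAND2 (log2 −0.68, SE 0.14, limma adjusted p 4.08e-04). In the combined knockdown GAL had 68.3, 51.5 and 37.1 CPM, a range that took in the siCtrl samples and came down to the siHAND2 samples. That difference from siCtrl was −0.21 as deposited (limma adjusted p 0.195) and 0.14 after rescaling (adjusted p 0.14), so GAL had no stable direction there. Without combined replicate 1 it was −0.42 and called (adjusted p 0.00247).

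ADCYAP1 (chr18:904944-912174, hg19, plus strand), the PACAP precursor, had 5.15, 5.77 and 5.28 CPM in siCtrl and 7.60, 9.06 and 8.49 in siMYCN. The groups did not overlap, and the rise of 1.55-fold was called (log2 0.55, SE 0.12, limma adjusted p 0.00104). In siHAND2 it had 4.84, 4.15 and 3.81 CPM, all below siCtrl, a difference of −0.28 that was not called (adjusted p 0.0617) and was −0.15 after rescaling (adjusted p 0.179). It passed the threshold without siHAND2 replicate 1 (−0.36, adjusted p 0.0361). The combined values of 5.59, 5.57 and 4.07 CPM overlapped siCtrl. The change there was −0.08 (adjusted p 0.553), and after rescaling it turned to 0.22 and was called (adjusted p 0.0446).

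VIP (chr6:153071932-153080903, hg19, plus strand), the precursor of vasoactive intestinal peptide, was close to the detection limit except in siMYCN. It had 0.441, 0.616 and 0.645 CPM in siCtrl and 4.38, 4.69 and 2.24 in siMYCN, which is an estimated 16, 27 and 37 reads against 166, 190 and 95. Replicate 3 was the lowest of the siMYCN samples, and no samples overlapped. The mean was 6.65-fold that of siCtrl (1.56 on the log2(CPM + 1) scale). In siHAND2 the 3 libraries held an estimated 3, 4 and 8 reads, and the pooled ratio to siCtrl was 0.240 (95% exact binomial interval 0.128 to 0.419, counting error only). The log2 difference of −0.46 was called as deposited (adjusted p 0.0207) but not after rescaling (−0.41, adjusted p 0.051), without the filter (adjusted p 0.141), without siCtrl replicate 2 (adjusted p 0.0634) or without siCtrl replicate 3 (adjusted p 0.0668). The combined samples had 0.281, 0.311 and 0.195 CPM of VIP, below all siCtrl samples, with a change of −0.31 that was not called (adjusted p 0.0864).

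Compared directly, siMYCN exceeded siHAND2 by 1.33 on the log2 scale for GAL (limma adjusted p 4.95e-08) and 0.84 for ADCYAP1 (7.21e-06), and VIP, untested, stood 2.03 higher. GAL and ADCYAP1 were also lower in the combined knockdown than in siMYCN, with differences of −0.86 for GAL (limma adjusted p 1.64e-05) and −0.63 for ADCYAP1 (1.05e-04), beside −1.88 for VIP, untested. Across the 12 samples, which share the 4 groups and the library scale, Pearson's r of log2(CPM + 1) was 0.932 for GAL with ADCYAP1, 0.866 for VIP with GAL and 0.899 for VIP with ADCYAP1.

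NPY (chr7:24323807-24331485, hg19, plus strand), the precursor of neuropeptide Y, had the lowest mean CPM of the 10 genes in siCtrl. It had 0.110, 0.114 and 0.314 CPM in siCtrl, 0.343, 0.247 and 0.329 after siMYCN, 0.665, 0.50 and 0.310 after siHAND2 and 0.779, 0.492 and 0.634 after both. These are an estimated 4 to 50 reads per library. All combined knockdown samples lay above all siCtrl and siMYCN samples, while the other comparisons with siCtrl overlapped. NPY entered only the fit without a filter, where 31.7% of genes were called in the combined knockdown, and its difference from siCtrl was 0.47 (limma adjusted p 0.0067).

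VGF fell in siMYCN, where CHGA, CHGB and SCG2 rose. VGF (chr7:100805790-100808853, hg19, minus strand) encodes a neurotrophin-inducible granin-like precursor. It had 11.3, 11 and 11.4 CPM in siCtrl and 6.67, 6.27 and 6.23 in siMYCN, and these groups were tight and far apart. VGF fell to 0.570 of siCtrl (log2 −0.73, SE 0.14, limma adjusted p 2.96e-04). In siHAND2 the values of 11.2, 12.4 and 10.9 CPM overlapped siCtrl, with a difference of 0.03 (95% interval −0.26 to 0.32, adjusted p 0.873). When both were reduced, VGF had 9.23, 7.38 and 4.70 CPM, below every siCtrl sample. The change of −0.63 was called (limma adjusted p 3.59e-04) and was −0.40 without combined replicate 3 (adjusted p 0.00182) and −0.32 after rescaling (adjusted p 0.0112).

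Both chromogranins were higher in each single knockdown. CHGA (chr14:93389445-93401642, hg19, plus strand), chromogranin A, had 93.7, 103 and 102 CPM in siCtrl, 129, 133 and 122 after siMYCN and 166, 184 and 164 after siHAND2. The 3 groups did not overlap, and siHAND2 was the highest. CHGA rose 1.72-fold in siHAND2 (log2 0.78, SE 0.13, limma adjusted p 4.62e-05) and 1.29-fold in siMYCN (log2 0.36, SE 0.13, limma adjusted p 0.0384). The smaller rise lost its call when any 1 of the 6 libraries compared was left out (adjusted p 0.0644 to 0.141) and was called after rescaling (adjusted p 6.54e-04). With both reduced, CHGA had 161, 129 and 97.8 CPM, with replicate 3 among the siCtrl samples. The change of 0.35 (limma adjusted p 0.0254) was 0.18 and not called without combined replicate 1 (adjusted p 0.149), 0.53 without combined replicate 3 (adjusted p 4.21e-05) and 0.71 after rescaling. The call was also lost without siCtrl replicate 1 (adjusted p 0.0934) or combined replicate 2 (adjusted p 0.0659).

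CHGB (chr20:5891974-5906006, hg19, plus strand), chromogranin B, had 35.2, 39.7 and 40.0 CPM in siCtrl, 58.3, 60.1 and 61.8 after siMYCN and 68.4, 68.3 and 68.5 after siHAND2. Again no groups overlapped. CHGB rose 1.57-fold in siMYCN (log2 0.64, SE 0.14, limma adjusted p 7.68e-04) and 1.79-fold in siHAND2 (log2 0.82, SE 0.14, limma adjusted p 2.84e-05). After both siRNAs it had 70.6, 52.7 and 40.7 CPM, from above the siHAND2 samples down to just above the highest siCtrl sample. The change of 0.47 was called (limma adjusted p 0.00401), was 0.27 without combined replicate 1 (adjusted p 0.0235) and was 0.82 after rescaling. Over the 12 samples CHGA and CHGB had an r of 0.940, and CHGA and SCG2 one of 0.603.

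SCG2 had the largest called rise against siCtrl of the granins in every knockdown. SCG2 (chr2:224461658-224467218, hg19, minus strand) encodes secretogranin II, the precursor of secretoneurin. It had 43.4, 43.0 and 42.3 CPM in siCtrl, 131, 141 and 125 after siMYCN, 123, 133 and 119 after siHAND2 and 283, 222 and 157 after both. The single knockdowns overlapped each other, lay well above siCtrl, and lay below every combined knockdown sample. SCG2 rose 3.09-fold after siMYCN (log2 1.60, limma adjusted p 7.12e-09), 2.91-fold after siHAND2 (log2 1.52, limma adjusted p 5.64e-09) and 5.15-fold after both (log2 2.30, limma adjusted p 5.92e-13), with an SE of 0.14 each. By size its change was the 31st highest of the 12680 genes in siMYCN, the 72nd in siHAND2 and the 53rd in the combined knockdown. The combined knockdown also exceeded siMYCN by 0.70 (limma adjusted p 2.34e-04) and siHAND2 by 0.78 (limma adjusted p 1.32e-04), while siMYCN and siHAND2 differed by 0.08 as deposited (95% interval −0.21 to 0.38) and by −0.07 after rescaling.

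SCG3 (chr15:51973550-52013224, hg19, plus strand), secretogranin III, which binds chromogranin A to the vesicle membrane, had 3 knockdown groups that overlapped one another. It had 112, 96.7 and 88.6 CPM in siCtrl, 130, 114 and 114 after siMYCN, 170, 131 and 119 after siHAND2 and 134, 143 and 107 after both. All siMYCN and siHAND2 samples lay above siCtrl, replicate 1 was the highest in these 3 groups, and combined replicate 3 lay among the siCtrl samples. SCG3 rose in siHAND2 (log2 0.48, SE 0.14, limma adjusted p 0.00585) and in the combined knockdown (0.36, SE 0.14, limma adjusted p 0.0233). In siMYCN the difference of 0.27 was not called (adjusted p 0.135), but it was with a block for replicate number (adjusted p 0.0474) and after rescaling (0.28, adjusted p 0.0473). The siHAND2 call was lost without siHAND2 replicate 1 (0.34, adjusted p 0.0652), and the combined call was lost without any 1 of siCtrl replicates 2 and 3 and combined replicates 1 and 2 (adjusted p 0.0618 to 0.123). After rescaling the differences from siCtrl were 0.64 in siHAND2 and 0.72 in the combined knockdown, and neither group overlapped siCtrl. The rescaled siMYCN samples lay below those of siHAND2 and of the combined knockdown.

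VIP aside, 6 of the 7 genes tested were called in siMYCN against siCtrl, 5 higher and 1 lower, where 33.7% of all genes tested were called, 17.4% higher and 16.3% lower. In siHAND2 5 of 7 were called, 4 higher (CHGA, CHGB, SCG2 and SCG3) and GAL lower, against a background of 42.7%, with 12.3% higher and 30.4% lower. After both siRNAs 5 of 7 were called, the same 4 granins higher and VGF lower, against 67.4% of all genes, 17.4% higher and 50.1% lower, a share close to that of all genes. After rescaling the counts were 7, 5 and 6 of 7, where 47.9, 50.8 and 70.7% of all genes were called. Between siMYCN and siHAND2, 4 of 7 were called against 35% of all genes, with GAL and ADCYAP1 higher and CHGA and VGF lower in siMYCN. Against siMYCN the combined knockdown differed in 3 of 7 (58.9% of all genes), with SCG2 higher and GAL and ADCYAP1 lower. Against siHAND2 it differed in 5 of 7 (40.3%), with GAL and SCG2 higher and CHGA, CHGB and VGF lower. All 3 sets between knockdowns depended on the scale. After rescaling, 6 of 7 were called between siMYCN and siHAND2 (44.5% of all genes). CHGB (−0.33, limma adjusted p 0.00411) and SCG3 (−0.36, limma adjusted p 0.0141) were then also lower in siMYCN. In the combined knockdown CHGA, SCG3 and VGF were then also called, higher than in siMYCN. Against siHAND2, CHGB was no longer called after rescaling (−0.16, adjusted p 0.124), while ADCYAP1 was (0.37, adjusted p 0.00395). The 3 comparisons with siCtrl share its samples and are not independent of each other.

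**Figure D2:**
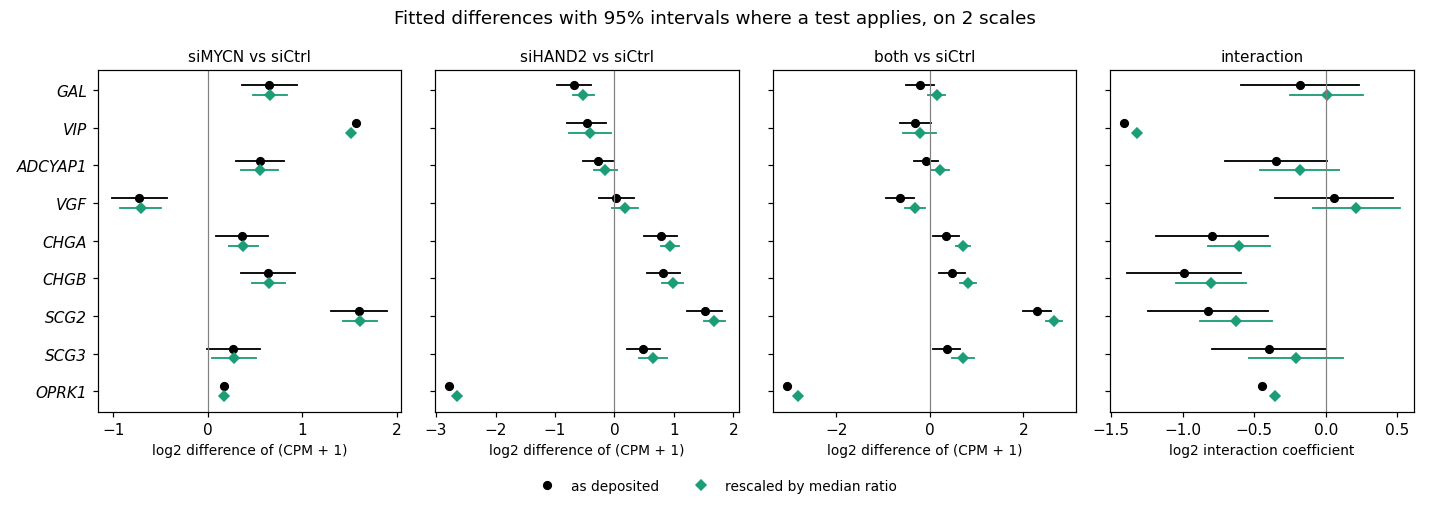
Fitted log2 differences of CPM + 1 (x axis) for the 9 genes that passed the filter (y axis), against siCtrl in the first 3 panels and as the interaction coefficient in the last. Black circles are values as deposited, green diamonds are values after rescaling by the median ratio, and bars are 95% intervals, left out for OPRK1, chosen for its fall, and for VIP where siMYCN, through which it passed the filter, is involved. CHGA, CHGB and SCG2 have interaction intervals below 0 on both scales, while GAL and ADCYAP1 change sign with the scale in the combined knockdown.

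The interaction compares the combined change with the sum of the single log2 changes, and a negative value means that the combined level was lower than that sum. MYCN itself was lower in the combined knockdown than in siMYCN, so the depletion was not equal, and its part in the interaction was not tested. The interaction was fitted for the same genes as the other contrasts. The coefficient was negative and called for 3 of the 7 genes tested, CHGB, SCG2 and CHGA. Of all genes tested 4.01% were called, and 3.65% were called and negative. The median coefficient over all genes was itself −0.18 as deposited, and −0.009 after rescaling. The coefficients were −0.99 for CHGB (SE 0.19, limma adjusted p 0.00366), −0.82 for SCG2 (SE 0.20, 0.0199) and −0.80 for CHGA (SE 0.19, 0.0165). On the CPM scale the combined SCG2 level of 221 ± 63.2 CPM (SD, n = 3) was 0.573 of the 386 CPM that the product of the single folds gives. The same ratio was 0.585 for CHGA and 0.510 for CHGB, against 1.08 for VGF and 0.911 for GAL. For VIP, whose coefficient of −1.41 was not tested, the combined level of 0.262 ± 0.0601 CPM lay between those of siHAND2 (0.134 ± 0.0499) and siCtrl (0.567 ± 0.111), without overlap. After rescaling the coefficients were −0.80 for CHGB, −0.63 for SCG2 and −0.61 for CHGA, and these 3 genes were again the ones called (6.14% of all genes). Without the filter, where 0.32% of all genes were called, none of the 9 genes was called by limma and 4 had an unadjusted p under 0.05. The CHGA and SCG2 calls were each lost without siHAND2 replicate 2 (adjusted p 0.0614 and 0.0668) or siMYCN replicate 2 (0.054 and 0.0663), and also without siCtrl replicate 1 for CHGA (0.0521) or siCtrl replicate 2 for SCG2 (0.051). For VGF the coefficient was 0.06 (95% interval −0.35 to 0.47) and for GAL −0.18 (−0.59 to 0.23), which was −0.39 and called without combined replicate 1 (adjusted p 0.0478).

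Ratios of genes within a sample do not depend on the library scale. The log2 ratio of GAL to SCG2 was 0.46 ± 0.039 (SD, n = 3) in siCtrl, −0.51 ± 0.10 after siMYCN, −1.78 ± 0.13 after siHAND2 and −2.08 ± 0.028 after both. In siCtrl the cells thus held more GAL than SCG2 reads and in every knockdown sample fewer, and no groups overlapped. The log2 ratio of SCG2 to CHGA went from −1.21 ± 0.089 in siCtrl to −0.46 ± 0.016 in siHAND2, 0.044 ± 0.034 in siMYCN and 0.76 ± 0.068 in the combined knockdown, also without overlap. VGF to SCG2 ran from −1.94 ± 0.038 in siCtrl to −3.44 ± 0.018 in siHAND2, −4.37 ± 0.11 in siMYCN and −4.97 ± 0.079 in the combined knockdown. CHGB to CHGA stayed between −1.43 and −0.99 in all samples, and the siMYCN samples (−1.15 to −0.99) lay above those of every other group. With 3 samples against 3, the exact permutation test (two-sided) cannot go below a p of 0.1 for any of these ratios.

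**Figure D3:**
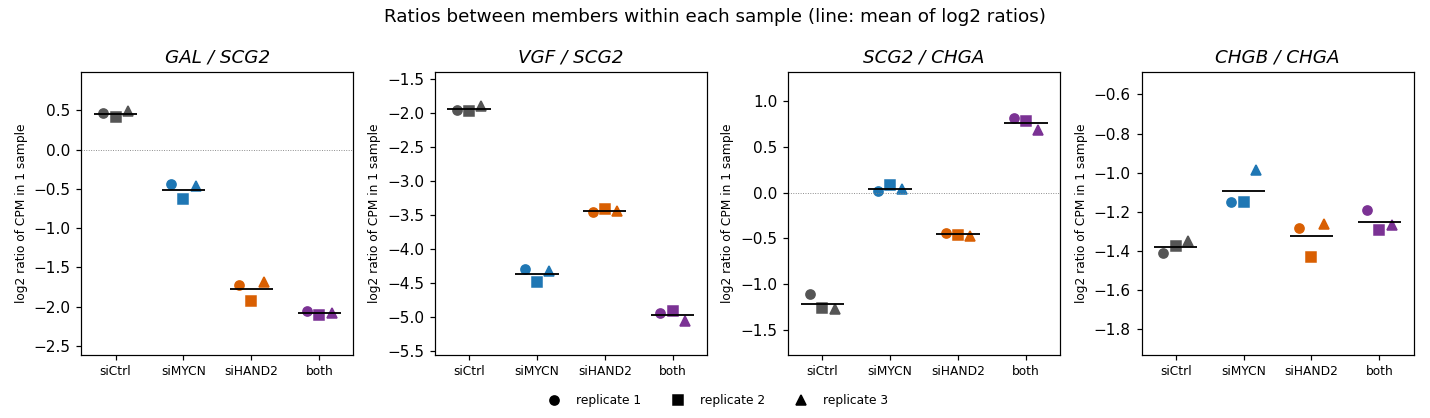
Log2 ratio of the CPM of one gene to another within the same sample (y axis, scales differ between panels), by siRNA group (x axis). Each symbol is 1 sample, shaped by replicate number, and lines are means of 3 samples. The combined knockdown samples, which spread widely in CPM, lie close together in GAL to SCG2 (−2.11 to −2.05), and of the 4 ratios CHGB to CHGA spans the narrowest range.

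OPRK1 (chr8:54138276-54164258, hg19, minus strand) had 16.4, 15.8 and 17.1 CPM in siCtrl and 17.7, 18.5 and 19.6 in siMYCN. In siHAND2 it had 1.80, 1.41 and 1.40 CPM and in the combined knockdown 1.11, 1.43 and 0.780. Every sample that received siHAND2 was thus low, whether or not MYCN was also reduced, and the other 6 were high. The siHAND2 mean was 9.37% and the combined mean 6.71% of siCtrl, and the differences of −2.78 and −3.06 on the log2(CPM + 1) scale were the third and the fifth lowest of the genes tested. With a pseudocount of 0.1 these differences were −3.34 and −3.82. OPRK1 was chosen for its fall, so its low ranks follow from that choice and are not a test. The siMYCN mean was 1.13-fold that of siCtrl. PDYN, the precursor of its ligands, was listed at 0 in all 12 samples. By Pearson's r over the 12 samples, the genes most like OPRK1 were KCNG1, a potassium channel subunit (r 0.995), ATP10D (0.995) and NEK7 (0.994). KCNG1 averaged 101, 100.0, 18.9 and 17.2 CPM in siCtrl, siMYCN, siHAND2 and the combined knockdown and was also the nearest gene after rescaling (r 0.995).

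For the other genes the closest patterns were NDRG4 and CRABP1 for GAL (r 0.993 each), RIMBP2 and ICA1 for VIP (0.964 and 0.961), and CDC42EP3 for ADCYAP1 (0.987). SCG2 was nearest to FAM131B and PPP2R5B (0.996 and 0.995), CHGB to LOXL4 (0.981), CHGA to ARRDC4 (0.953) and SCG3 to WDR26 and MARF1 (0.976 each). VGF was nearest to HSPA12A (0.983), to the ribosomal scaffold gene RACK1 (0.979) and to EIF3H, a translation initiation factor subunit (0.978). RACK1 averaged 1273 CPM in siCtrl, 857 after siMYCN, 1368 after siHAND2 and 903 after both. These correlations describe 12 samples that share 4 groups and 1 library scale. The VGF neighbours all changed on rescaling, when FAM84B was nearest (0.964), while 1 or 2 of the 3 nearest genes of each other gene were shared between the scales.

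Genes that serve the same peptides were counted from 4 lists. Of 13 receptors for these peptides and other opioids only ADCYAP1R1 and OPRL1 passed the filter. ADCYAP1R1, the PACAP receptor, had 84.6 ± 10.8 CPM (SD, n = 3) in siCtrl and 102 ± 7.18 in siMYCN. It fell to 37.5 ± 4.74 in siHAND2 (log2 −1.15, limma adjusted p 5.89e-07) and to 27.9 ± 6.75 in the combined knockdown (−1.59, limma adjusted p 5.54e-10). OPRL1, the nociceptin receptor, rose in siHAND2 from 2.74 ± 0.137 to 3.91 ± 0.21 CPM (0.39, limma adjusted p 0.013), and LKAAEAR1 overlaps it on the other strand, so that their reads may be mixed. Of 28 other peptide precursors 5 passed the filter. PTHLH, encoding parathyroid hormone-related protein, stood at 0.412 ± 0.0246 CPM in siCtrl, 2.54 ± 0.579 in siHAND2 and 2.02 ± 0.358 in the combined knockdown (log2 differences 1.31 and 1.09). NMU, encoding neuromedin U, stood at 1.96 ± 0.231, 0.617 ± 0.154 and 0.270 ± 0.0226 CPM in the same groups (−0.87 and −1.22). Over the 12 samples PTHLH averaged 1.31 CPM and NMU 1.11 CPM. PTHLH thus passed the filter only through the groups that received siHAND2, and NMU only through the others, so neither is given a test. NMB and NXPH1 averaged 1.48 and 1.39 CPM, also near the filter, and are given no test either. Both stood below siCtrl in siMYCN (log2 differences −0.70 and −0.52), where GAL and ADCYAP1 rose. NMB was also lower in siHAND2 (−0.47), and NXPH1 in the combined knockdown (−1.02).

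Of 14 processing genes 9 were tested, and of 35 genes of dense-core vesicle assembly and release 29. As deposited, 2 processing genes rose and 2 fell in siMYCN, 3 rose in siHAND2, and 4 rose and 2 fell in the combined knockdown, beside the shares of all genes given above. After rescaling 4, 5 and 7 rose and 2, 0 and 2 fell, where 25.4, 25.9 and 37.7% of all genes were called higher and 22.5, 24.9 and 33% lower. CPE, the carboxypeptidase that trims peptide ends, rose in each knockdown from 74.2 ± 2.59 CPM to 122 ± 5.26 in siMYCN (0.71, limma adjusted p 4.80e-04), 108 ± 4.54 in siHAND2 (0.54, 0.00403) and 139 ± 41.8 in the combined knockdown (0.85, 1.34e-05). PCSK1N, an inhibitor of the convertase PCSK1, went from 11.8 ± 1.70 to 26.4 ± 1.55 CPM in siMYCN (1.10, limma adjusted p 2.24e-06). Among the falls, the convertase PCSK6 went from 26.3 ± 2.09 to 19.1 ± 0.754 CPM in siMYCN (−0.44, limma adjusted p 0.00449) and 11.1 ± 1.69 in the combined knockdown (−1.18, 1.93e-09), where the carboxypeptidase CPD also fell, from 106 ± 6.58 to 66.8 ± 15.0 CPM (−0.68, limma adjusted p 1.06e-04). The convertases PCSK1 and PCSK2 themselves averaged 0.0446 and 0.0652 CPM over the 12 samples, near the level of 3 reads (0.0468 to 0.0950 CPM).

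Of the 29 vesicle genes, 15 rose in siMYCN and none fell, 11 rose and 3 fell in siHAND2, and 13 rose and 8 fell in the combined knockdown. The shares of all genes were 17.4% higher and 16.3% lower, 12.3 and 30.4%, and 17.4 and 50.1%. After rescaling 20, 17 and 19 rose and 0, 2 and 1 fell, so the falls in the combined knockdown depended on the scale. The shares of all genes were then 25.4, 25.9 and 37.7% higher and 22.5, 24.9 and 33% lower. As deposited, the median log2 change of the vesicle genes was 0.36, 0.05 and 0.17, beside 0.006, −0.14 and −0.28 over all genes. SYT11, a synaptotagmin that does not bind calcium, rose from 67.8 ± 1.05 CPM to 245 ± 6.70 in siMYCN (1.84, limma adjusted p 1.32e-09), 181 ± 13.9 in siHAND2 (1.40, 3.95e-08) and 318 ± 95.3 in the combined knockdown (2.17, 2.66e-12). HID1, which acts in vesicle formation at the Golgi, rose from 0.214 ± 0.069 to 4.68 ± 1.08 CPM in the combined knockdown (2.21, limma adjusted p 4.93e-13), and HID1-AS1 overlaps it on the other strand. RAB3A, a vesicle GTPase, rose in siHAND2 from 2.85 ± 0.431 to 10.5 ± 3.54 CPM (1.55, limma adjusted p 1.78e-08). RAB27A, another vesicle GTPase, fell from 6.96 ± 0.547 to 3.58 ± 0.542 CPM in siHAND2 (−0.80, limma adjusted p 4.16e-06) and 2.37 ± 0.214 in the combined knockdown (−1.24, 7.67e-10). ICA1, a vesicle-associated protein whose pattern was among those nearest to VIP, fell in siHAND2 from 7.45 ± 0.688 to 4.25 ± 0.0675 CPM (−0.68, limma adjusted p 6.01e-05), and LOC100505938 overlaps it on the other strand.

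**Figure D4:**
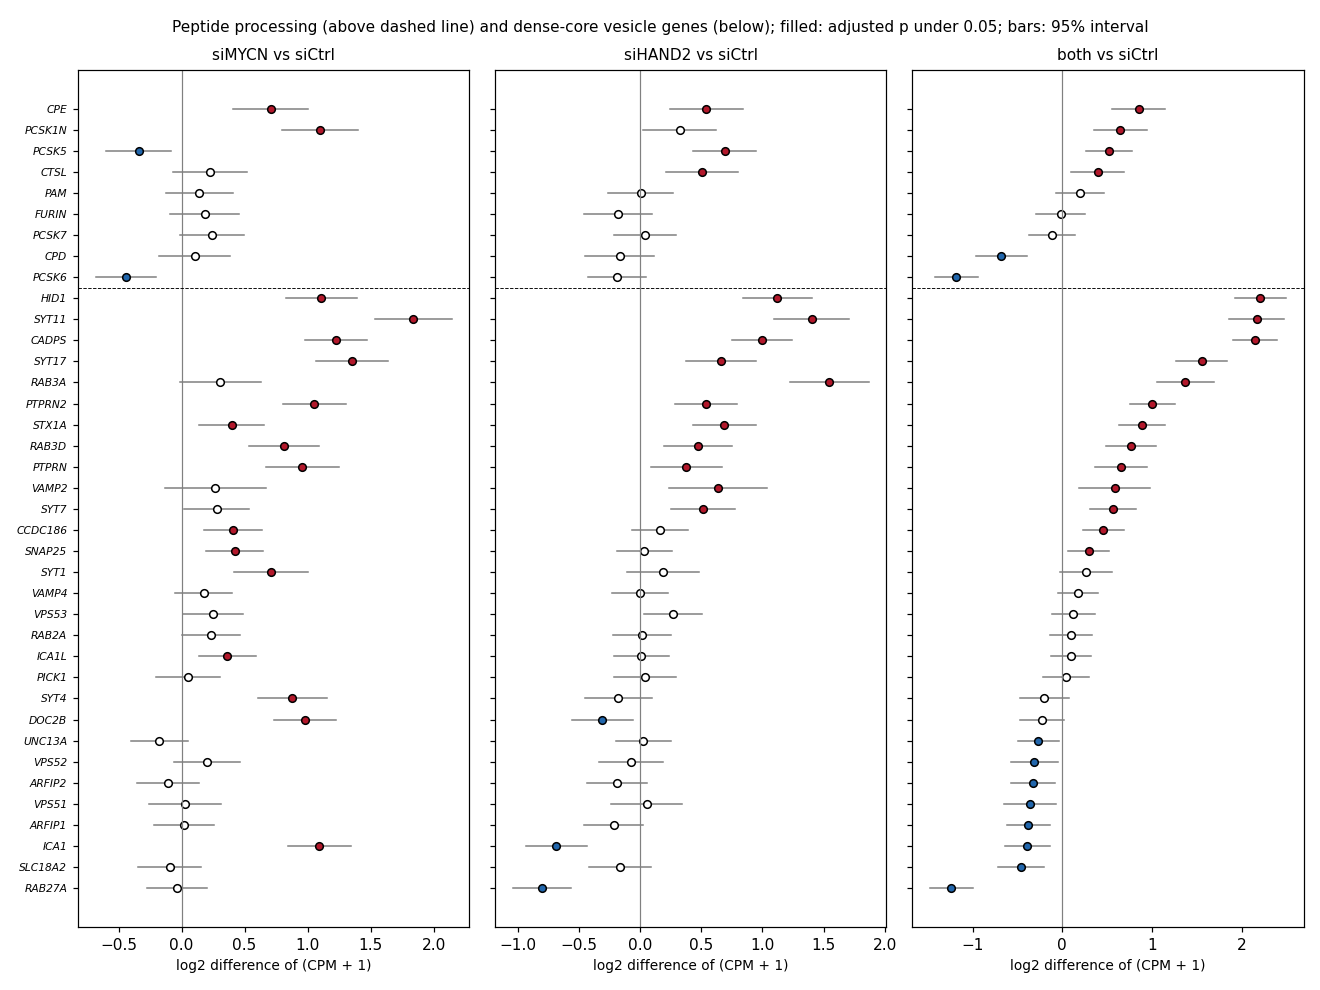
Fitted log2 differences of CPM + 1 against siCtrl (x axis) for the 9 processing genes (above the dashed line) and 29 dense-core vesicle genes (below it), ordered by the combined knockdown within each list. Bars are 95% intervals, filled circles are called (red higher, blue lower) and open circles are not. In siMYCN all 15 called vesicle genes lie above 0, and CPE is called higher in all 3 panels.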

How the data were processed

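RNA sequencing of 12 IMR32 samples (4 siRNA groups of 3, grouped by title) was deposited by the authors as a table of CPM per gene. Per the submitters' processing notes STAR 2.5.1, Partek and the hg19 (GRCh37) build were used. Strand use, annotation, filters, the tool for counting and the denominator of CPM are not given in the sources used here. A constant of 0.0001 that the authors had added to each CPM value was subtracted. Depth was estimated from the smallest CPM step, and the share of whole values was 89.0 to 90.7% up to 20 reads and 79.9 to 81.4% from there to 200 reads (tolerance 0.05 of a read), so no test for counts was run. At these depths 3 reads are 0.0468 to 0.0950 CPM, counting error only.

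A linear model with 4 groups was fitted to log2(CPM + 1) of the 12680 genes with a mean of at least 1 CPM, with limma 3.58.1 (eBayes with trend) in R 4.3.3, on 8 residual degrees of freedom, for 7 contrasts. P-values are two-sided and were Benjamini-Hochberg adjusted over all genes tested, and genes with an adjusted p under 0.05 are termed called. The fit was tested on simulated data. For the rescaling, each sample was divided by the median, over genes, of its ratio to the geometric mean of the 12 samples.

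The 10 genes and all lists were chosen with earlier results of these data known. In each list the named genes are the 2 largest rises and 2 largest falls that were called per knockdown, with receptors and peptidases at a mean of at least 1 CPM, and some of these appear only in counts. Part of the sympathetic marker list is not reported here. Nearest genes are the 3 with the highest Pearson's r among genes with a mean of at least 5 CPM. Transcript lengths are those of canonical transcripts in GENCODE 44 lifted to GRCh37, and promoter windows are from RefSeq. No member overlaps another listed gene. Of the genes nearest to them, ICA1, NEK7, PPP2R5B, HSPA12A, RACK1, EIF3H, WDR26, MARF1, ILK, REEP3, KDELR1 and GRK5 do, and such genes may share reads. MYCN, HAND2, PHOX2A, DBH, ISL1, NMB, CPE, PCSK6, SYT11, OPRL1 and HID1 also overlap another listed gene.

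Samples of a group differed by a chi-square of 3.35 to 37.7 per gene, and none was merged. The groups share replicate numbers. Deviations of same-numbered samples from their group means correlated above 0.1 in every pair for siCtrl with siMYCN (0.147 to 0.440) and for siMYCN with siHAND2 (0.137 to 0.330), which is taken as pairing from the data, and not in every pair for the other groups. Alternatives were a replicate block, other scalings, filters and pseudocounts, no trend, fits of only the compared groups, and each replicate left out.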

Additional observations from a re-analysis of the deposited data

Results flagged for a closer look

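The interaction term of limma was called for 3 genes, whose combined change differed from the sum of the single log2 changes. The calls of CHGA and SCG2 were lost when certain single libraries were left out, as given above. MYCN was also lower in the combined knockdown than in siMYCN, and the part of this unequal depletion was not tested. The coefficients were −0.99 for CHGB, −0.82 for SCG2 and −0.80 for CHGA on the log2(CPM + 1) scale. For SCG2, siHAND2 exceeded siCtrl by 1.52, while the combined knockdown exceeded siMYCN by 0.70. For CHGB the combined knockdown was lower than siHAND2 by −0.35, where siMYCN was higher than siCtrl by 0.64, and for CHGA the same differences were −0.43 and 0.36. After rescaling the differences from siHAND2 were −0.16 for CHGB, no longer called (adjusted p 0.124), and −0.23 for CHGA. The share of reads in the listed genes also fell below that of either single knockdown in 2 of the 3 combined samples, and its part in these coefficients was not tested beyond the rescaled values.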

How the results depend on the processing

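These counts include VIP, unlike those above. VIP passed the filter only through siMYCN, so its calls where siMYCN is involved, the interaction included, say nothing about how stable the counts are. Among the 114 counts of called genes under an alternative, 101 stayed within 1.5 times the value reported and 13 did not. For the combined knockdown against siCtrl, 3 genes were called without the filter (31.7% of all genes) and with only the compared groups fitted (7646 of 12680 genes). For the combined knockdown against siMYCN, 7 were called after rescaling, alone (56.7% of all genes) or with the block (7498 of 12680 genes). Rescaling to the summed level of the listed genes also gave 7 (7131 of 12680). Rescaling without combined replicate 3, a fit chosen after seeing the data, gave 8 (6612 of 12680). For the combined knockdown against siHAND2, 2 were called without the filter (13.8% of all genes) and 3 with only the compared groups (3602 of 12680). For the interaction, 0 were called without the filter (0.32% of all genes), which tests more genes. Leaving out 1 replicate gave 6 called genes for siMYCN against siCtrl, 5 to 6 for siHAND2, 3 to 5 for the combined knockdown, 2 to 5 for the interaction, 4 to 5 for siMYCN against siHAND2, 3 to 5 for the combined knockdown against siHAND2 and 4 to 5 against siMYCN. In that order the same fits called 3202 to 3434, 4303 to 4670, 7833 to 9340, 263 to 4443, 3261 to 3757, 3905 to 6962 and 6414 to 8960 of all 12680 genes.

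Among the differences from siCtrl and the interaction, signs turned for 3 genes, and the cause was not tested. GAL in the combined knockdown was 0.14 after rescaling (with and without the block), 0.13 after rescaling to the sum, and 0.25 after rescaling without combined replicate 3, and leaving out 1 replicate gave −0.42 to 0.011. Its interaction was 0.0083 after rescaling (with and without the block), 0.12 after rescaling without combined replicate 3, and −0.39 to 0.041 with 1 replicate left out. ADCYAP1 in the combined knockdown was 0.22 after rescaling (with and without the block), 0.21 after rescaling to the sum, 0.25 after rescaling without combined replicate 3, and −0.15 to 0.042 with 1 replicate left out. With 1 replicate left out, VGF in siHAND2 was −0.020 to 0.066 and its interaction −0.13 to 0.29. Between knockdowns, differences not called as deposited also turned on rescaling: CHGA 0.33 (adjusted p 0.00131) and CHGB 0.18 in the combined knockdown against siMYCN, SCG3 0.07 against siHAND2, and SCG2 −0.07 in siMYCN against siHAND2. CHGB in the combined knockdown against siHAND2 was −0.16 and not called without combined replicate 3, and GAL was 0.26 without combined replicate 1 (adjusted p 0.0506).

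With a block for replicate number, 8 genes were called in siMYCN and 7 in siHAND2, VIP included, beside 38.8 and 48.4% of all genes. This added SCG3 in siMYCN (limma adjusted p 0.0474) and ADCYAP1 in siHAND2 (−0.28, adjusted p 0.0408), and no other call changed. Same-numbered samples correlated above 0.1 in 11 of 18 pairs (−0.192 to 0.440), against 6 of 36 pairs with other numbers. Depth limits VIP in siHAND2 and NPY in siCtrl, with single libraries at 3 to 8 and 4 to 18 estimated reads.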
